A study of Mus musculus with 24 samples.

Results

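The genes described here encode the heat shock proteins and co-chaperones of the mouse prefrontal cortex (PFC). They were chosen by symbol, as protein-coding genes of the Hsp70, Hsp110, Hsp60, Hsp10, small heat shock protein, DNAJ, BAG and heat shock factor families, and 67 of the 14074 genes in the table met the rule. All 67 were among the 14060 genes tested. Bulk RNA-seq of the PFC was available from 24 adult male C57BL/6 mice in 6 groups of 4. Intact control mice, which had been housed singly for some days, and mice exposed to 30 days of chronic social defeat by aggressive CD1 males were compared. The defeated mice had been divided by their behavior in an agonistic confrontation test into a passive coping strategy (PS) and an active coping strategy (AS) phenotype, after animals with atypical profiles had been set aside. On the day after the last session, mice of each of these 3 classes received dexamethasone (DEX, a synthetic agonist of the glucocorticoid receptor) at 2 mg/kg or saline, and tissue was taken 6 h later. Every mouse, saline groups included, was therefore injected.

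Cells keep proteins folded with a set of ATP-driven and ATP-independent chaperones. Hsp70 proteins bind exposed hydrophobic stretches, J proteins of the DNAJ families deliver clients and stimulate the Hsp70 ATPase, and nucleotide exchange factors such as the BAG and Hsp110 proteins release the client again. Small heat shock proteins hold unfolding proteins without using ATP, and Hsp60 with Hsp10 folds proteins in the mitochondrial matrix. On proteotoxic stress the heat shock factor HSF1 binds heat shock elements in the promoters of many of these genes. The same chaperones also prepare the glucocorticoid receptor, which is loaded by Hsp70 and Dnajb1 or other J proteins onto Hsp90 before it can bind hormone.

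Sequences before the start site are shown for members that carry these elements. Windows of 250 bases before to 50 bases after the start, from RefSeq on GRCm38.p6, were found for 55 of the 67 members. The first set holds pairs of the heat shock element unit, in capitals, written on the strand of the gene. Hspb1 was one of the genes that moved with DEX, Hspa1a and Hspa1b are the classical heat-inducible Hsp70 genes, and Hspd1 and Hspe1 share 1 promoter.
Hspb1, chr5:135887782-135887849, plus strand: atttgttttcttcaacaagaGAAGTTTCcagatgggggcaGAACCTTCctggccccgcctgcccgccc
Hspa1a, chr17:34972233-34972280, minus strand: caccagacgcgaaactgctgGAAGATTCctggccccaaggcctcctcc
Hspa1b, chr17:34959315-34959362, minus strand: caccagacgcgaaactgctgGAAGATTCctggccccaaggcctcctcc
Hspd1, chr1:55088039-55088096, minus strand: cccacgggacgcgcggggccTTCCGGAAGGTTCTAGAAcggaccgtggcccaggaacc
Hspe1, chr1:55088039-55088096, plus strand: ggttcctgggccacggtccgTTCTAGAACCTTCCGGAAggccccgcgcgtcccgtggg
The pair in Hspa1a and Hspa1b lies 104 to 97 bases before the start, and the 250 bases before the start were equal at 247 positions between these genes. The stretch of Hspd1 is the reverse complement of that of Hspe1, since the genes run apart from the same region. Their capitals hold 3 overlapping matches of either pair form. In Hspb1 the matches lay 117 to 110 and 97 to 90 bases before the start.

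The pair GAANNTTC was found in the window of 14 of 55 members, against 9.04% of 27025 genes with a window. The pair TTCNNGAA was found in 6 of 55 members against 9.6% of all genes. A run of 3 units, GAANNTTCNNGAA or TTCNNGAANNTTC, which contains both pairs, occurred in 4 members (Dnajb6, Hspd1, Hspe1 and Hsph1) against 0.662% of all genes. In Hspb8 the only match lay 3 to 10 bases after the start, where no sequence is shown. Of the 8 members called below, only Hspb1 and Hspb8 had a match to either pair, though 12 members had no window. The glucocorticoid response element GNACANNNTGTNC was in the window of 0 of 55 members and of 0.537% of all genes. Both strands were searched, and a match is a description of these letters only.

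The second set shows the ER stress response element, a composite site of the unfolded protein response, in capitals.
Hspa5, chr2:34772005-34772063, plus strand: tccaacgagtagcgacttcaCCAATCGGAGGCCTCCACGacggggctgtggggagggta
Dnajc3, chr14:118937807-118937865, plus strand: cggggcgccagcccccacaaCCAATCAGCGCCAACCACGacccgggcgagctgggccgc
Hspa5 encodes BiP, the Hsp70 of the endoplasmic reticulum, and Dnajc3 encodes P58IPK, a J protein of the same compartment. The element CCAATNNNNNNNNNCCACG was in the window of these 2 members and of 0.137% of all genes.

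The libraries held 21121869 to 59439645 reads on genes, recovered from the deposited normalized counts. Depth moved with the groups, since the median was 22869703 reads in control saline mice and 37876626 reads in AS mice given DEX. No member had fewer than 10 recovered reads in any library, and the smallest value was 29 reads. Markers of pyramidal neurons summed to 221520 to 295380 normalized counts per library, against 4494 to 6667 for microglia and 2314 to 5714 for endothelial cells. Of the 4 striatal markers, Drd2 and Adora2a are not among the genes of the table, and Foxj1, Dnah5 and Tekt1 of motile cilia and Ttr of the choroid plexus are likewise not listed. In bulk tissue, fewer cells of a type cannot be told from less RNA per cell.

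Levels were compared between members as normalized counts per kilobase of exon, averaged over the 24 libraries. The members spanned from 28.7 for Dnajc25 to 9165 for Hspa8. Hspa8 encodes the constitutive Hsc70, which also uncoats clathrin vesicles, and its level per kilobase in single libraries was 8227 to 10490. The next 3 were Bag1 at 1839, an exchange factor of Hsp70, Dnajc6 at 1672, the auxilin that brings Hsc70 to clathrin coats, and Dnajc5 at 1522, the cysteine string protein of synaptic vesicles. Their ranges over libraries overlapped, with 1639 to 2368 for Bag1, 1371 to 1945 for Dnajc6 and 1298 to 1710 for Dnajc5. Hspd1 stood at 1445 per kilobase, Hspa5 at 1242, the mitochondrial Hsp70 Hspa9 at 1169, and the Hsp110-type exchange factors Hspa4 and Hsph1 at 1126 and 978. The HSF1 gene stood at 155, Hsf4 at 321 and Hsf2 at 72.1.

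Members on the list of HSF1 targets used below were spread over this order. Hspa8 ranked at place 1, Hspd1 at 6, Hsph1 at 11, Dnaja1 at 14, Hspe1 at 18, Dnajb1 at 22 and Hspa4l at 29. Hspa1b ranked at place 55 with 92.4 per kilobase and Hspa1a at place 56 with 89.6, which did not differ beyond the library ranges of 76.2 to 125 and 70.2 to 108. Bag3, the partner of the small heat shock proteins in selective autophagy, stood at 81.3. The 5 members with an Hspb symbol lay in the lower part, with Hspb8 at 199 and Hspb1 at 117 ahead of Hspb3 at 71.7, Hspb11 at 54.9 and Hspb6 at 52.6. Of stretches of 100 bases in their transcripts, 49.9% in Hspa1b and 48.6% in Hspa1a occur in another gene, and 44% in Hspb1 occur in the pseudogene Hsp25-ps1. The share was 28.2% in Hspa8, 23.4% in Hspd1, 14.6% in Dnajb6 and 10% in Hspe1. The split of reads between these copies is therefore uncertain, and so are their levels per kilobase and ranks. Reads matching several genes may also have gone uncounted, since their treatment is not given.

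**Figure D1:**
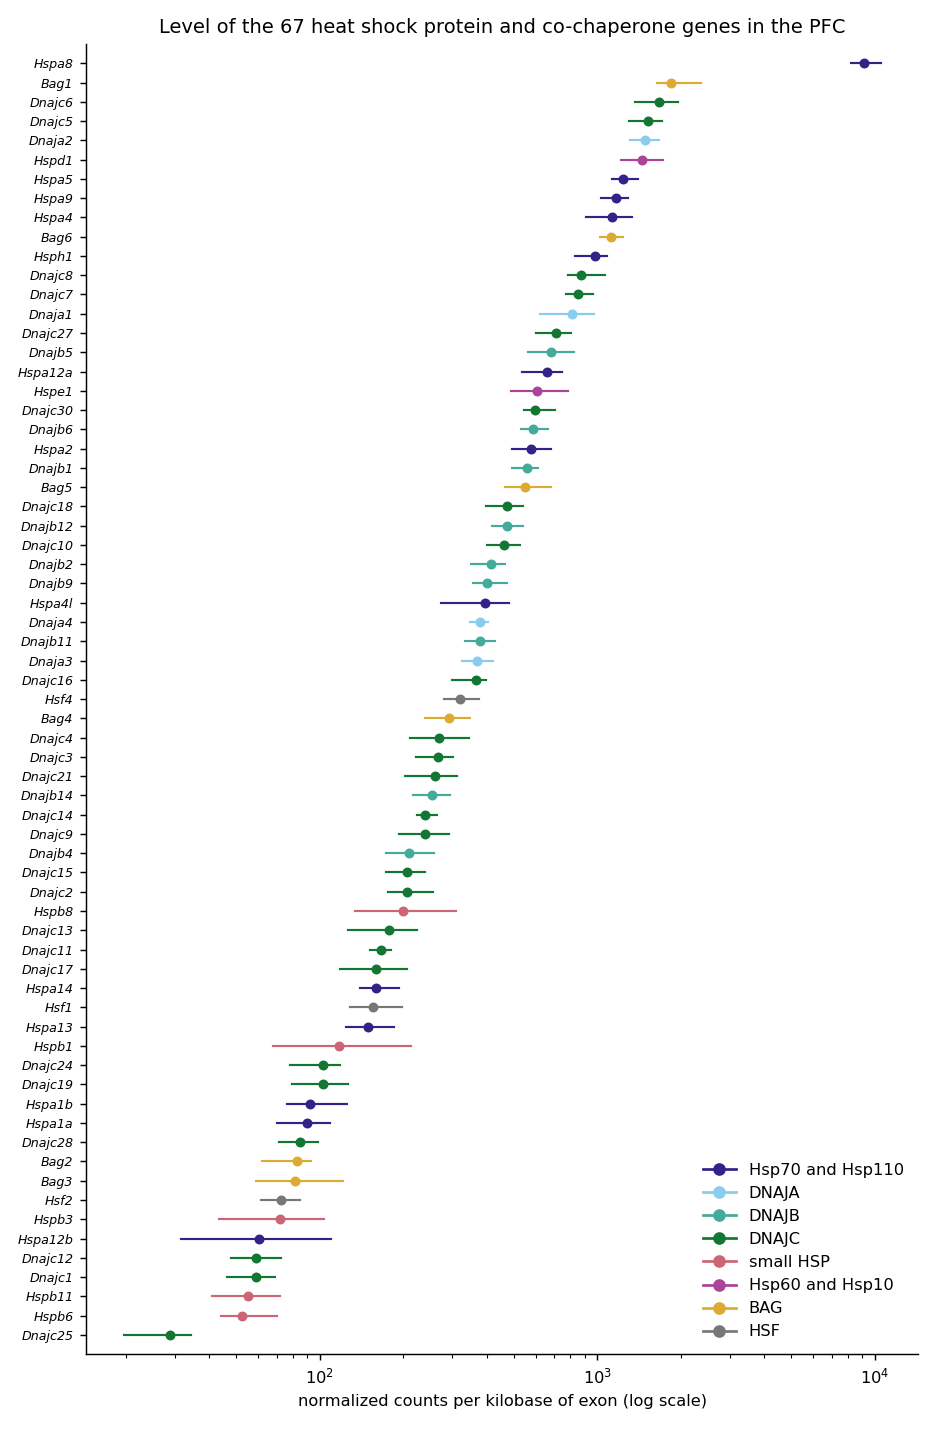
Mean level of each of the 67 members in normalized counts per kilobase of exon on a log scale, coloured by family, with lines from the lowest to the highest of the 24 libraries. Hspa8 stands alone at 9165, and the 5 members with an Hspb symbol lie at 199 or below.

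The first question was whether chronic defeat alone had changed the chaperones, from the saline groups. A gene was called when its Benjamini-Hochberg adjusted p from limma, over all 14060 genes, was under 0.1. In PS against control mice 0 of 67 members were called, beside 1.51% of all genes. An unadjusted p under 0.05 was reached by 9 members, or 6 higher and 3 lower, against 13.2% of all genes. In AS against control mice 0 members were called, beside 0.185% of all genes, and 8 had an unadjusted p under 0.05 against 11% of all genes. Between AS and PS mice 0 members were called, beside 0.0% of all genes, and 4 had an unadjusted p under 0.05 against 4.79% of all genes. Of the 67 members, 63 differed by less than 0.25 on the log2 scale in PS mice and 63 in AS mice. The share of all genes within that band was not taken. The median absolute log2 fold change was 0.092 for the members and 0.099 for all genes in PS mice. In AS mice it was 0.067 and 0.094. The median log2 fold change of the members was 0.03 in PS and 0.02 in AS mice, where that of all genes was 0.00 in both.

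Hspb8 was the member nearest to a call in AS mice. It encodes a small heat shock protein that works with Bag3 in the autophagic removal of misfolded proteins. Its normalized counts in control saline mice were 316, 264, 273 and 262, and in AS saline mice 451, 361, 429 and 368, so that these groups did not overlap. The log2 fold change was 0.53 ± 0.13 (SE), with a limma adjusted p of 0.17. DESeq2 on the recovered reads gave an adjusted p of 0.041 and called this 1 member, beside 0.704% of all genes, and edgeR gave 0.17. With library size as a covariate in limma the adjusted p was 0.048, and without control DEX replicate 101 it was 0.091. Control DEX replicate 101 is not in this comparison, and without it the log2 fold change stayed at 0.53. Its removal moved only the spread shared by all groups and the adjustment. The call of Hspb8 thus depended on the tool, on that covariate and on the shared spread.

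Bag6, a chaperone of membrane proteins on their way to the ER, came nearest in PS mice, and was chosen here after its values were seen. Its normalized counts were 7718, 7365, 7129 and 7513 in control saline mice and 6354, 6396, 6790 and 6731 in PS saline mice, with no overlap. It had a log2 fold change of -0.18 ± 0.05 (SE) and a limma adjusted p of 0.12. DESeq2 called it at an adjusted p of 0.030, as 1 member beside 3.07% of all genes, and edgeR gave 0.16. In limma it was also called without PS DEX replicate 34, AS saline replicate 44 or AS DEX replicate 60, none of which is in this comparison. A fit of only the groups compared called it as well, and Dnajc2 too. The inducible Hsp70 genes were not called, with log2 fold changes of 0.11 in PS and 0.30 in AS mice for Hspa1b and of 0.09 and 0.22 for Hspa1a. Hspb1 had 0.47 ± 0.18 (SE) in AS mice, with a limma adjusted p of 0.35. The 3 heat shock factors lay between -0.19 and -0.06 in PS mice and between -0.12 and 0.02 in AS mice, and none was called.

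**Figure D2:**
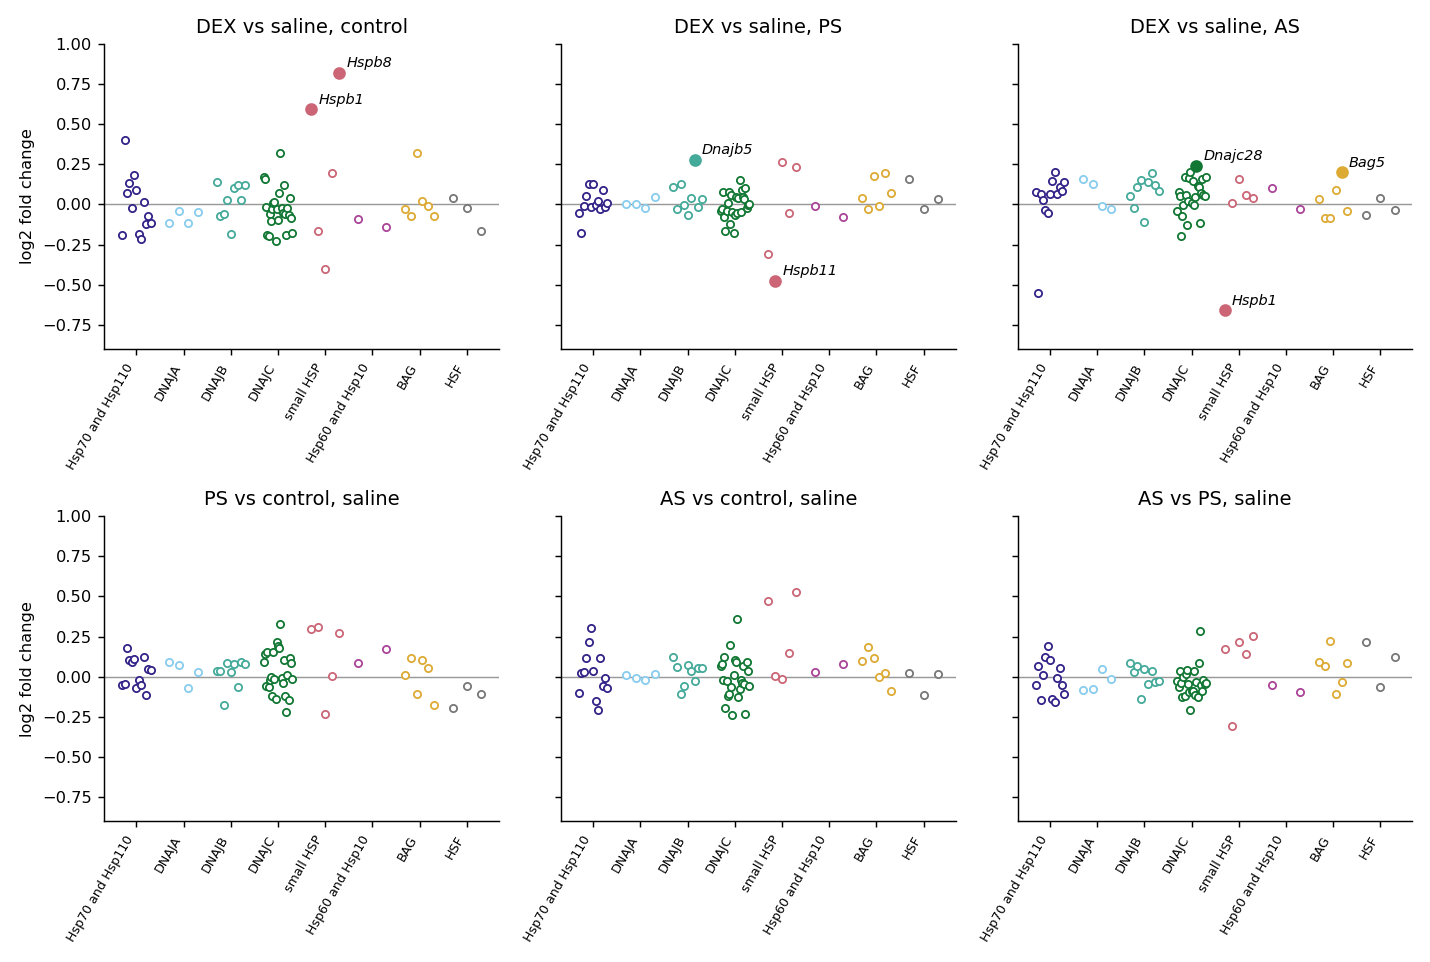
Log2 fold change of each of the 67 members by family, for the DEX response of each class of mice (top) and for the saline groups (bottom), with filled and named points for calls at a limma adjusted p under 0.1. Filled points occur in the top row, with Hspb8 at 0.82 in control mice and Hspb1 at -0.66 in AS mice, and none in the bottom row.

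The second question was how the PFC of each class of mice answered DEX. Fkbp5, an Hsp90 co-chaperone of the glucocorticoid receptor and a standard target of it, checks the treatment. It had a mean of 796 ± 61.6 (SD, n = 4) normalized counts with saline and 3820 ± 316 with DEX in control mice, and rose by 2.26 ± 0.11 (SE) on the log2 scale there, by 2.00 ± 0.11 in PS and by 1.91 ± 0.11 in AS mice. Few members were called beside it. DEX changed 2 of 67 members in control mice, both higher, beside 6.51% of all genes in either direction and 4.05% higher. In PS mice it changed 2 members, 1 higher and 1 lower, beside 5.4% of all genes, with 2.75% higher and 2.65% lower. In AS mice it changed 3 members, 2 higher and 1 lower, beside 8.8% of all genes, with 3.83% higher and 4.97% lower. For the mean of the 3 DEX responses 7 members were called, 5 higher and 2 lower, beside 15.5% of all genes, with 7.49% higher and 8.05% lower. These counts of members lie near or under the shares of all genes. The count in AS mice rested on single libraries, at 11 without AS saline replicate 44, 6 without AS DEX replicate 60 and 0 without AS saline replicate 40. In PS mice it was 0 without PS saline replicate 2 or 62 or PS DEX replicate 56, and the mean response had 4 calls without control saline replicate 117 or control DEX replicate 122. The shares of all genes called without these libraries were not taken, so whether such shifts are particular to the members is not known. In all, limma over all groups and libraries called 8 members in at least 1 of the 10 comparisons and 59 in none. The share of all genes called in at least 1 comparison was not taken, but the mean response alone called 15.5% of them.

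Hspb8, at chr5:116408491-116422864 on the minus strand of mm10, had the lowest adjusted p of any member. Its normalized counts in control mice were 316, 264, 273 and 262 with saline and 605, 459, 427 and 495 with DEX. Every DEX library thus exceeded every saline library, and replicate 101 was the highest. The log2 fold change was 0.82 ± 0.13 (SE), or 1.77-fold, with a limma adjusted p of 0.00027, and the call was kept without each of the 24 libraries, with an adjusted p of at most 0.002.

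In PS mice the Hspb8 counts were 359, 304, 404 and 287 with saline and 392, 360, 361 and 480 with DEX. In AS mice they were 451, 361, 429 and 368 with saline and 350, 384, 419 and 508 with DEX. Saline and DEX overlapped in both, with log2 fold changes of 0.24 ± 0.13 (SE) in PS and 0.04 ± 0.13 in AS mice, and neither was called. The mean of the 3 responses was 0.37 ± 0.08 (SE), with a limma adjusted p of 0.0014, and it was kept without each library.

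Hspb1, the mouse Hsp25 that binds unfolding proteins and actin filaments, lies at chr5:135887919-135889563 on the plus strand. In control mice its normalized counts were 93.1, 99.6, 95 and 122 with saline and 219, 142, 123 and 148 with DEX. The groups touched without overlapping, at 122 and 123. The log2 fold change was 0.59 ± 0.18 (SE), with a limma adjusted p of 0.068. The call was lost without control saline replicate 106 (adjusted p 0.17), 107 (0.14) or 109 (0.14), and without control DEX replicate 101 (0.27) or 122 (0.11), and in a fit of only the groups compared (0.104).

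In AS mice Hspb1 moved the other way. Its counts were 146, 109, 167 and 150 with saline and 80.7, 69.9, 109 and 102 with DEX. The DEX libraries were lower except that AS DEX replicate 60 lay at the level of AS saline replicate 14. The log2 fold change was -0.66 ± 0.18 (SE), with a limma adjusted p of 0.031, which became 0.12 without AS saline replicate 40 and 0.14 without AS DEX replicate 42. In PS mice the counts were 125, 115, 132 and 131 with saline and 95.5, 85.3, 88.6 and 144 with DEX. There 3 of 4 DEX libraries lay below all saline libraries and replicate 56 above them, and the log2 fold change of -0.31 ± 0.18 (SE) was not called.

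The difference between the DEX responses of AS and control mice was tested directly as an interaction. It called 2 of 67 members, both with the lower response in AS mice, beside 0.349% of all genes in either direction and 0.164% lower. Most members leaned the other way, with 47 differences above 0 and 20 below. The median difference was 0.07 for the members and 0.00 for all genes. A limma unadjusted p under 0.05 was reached by 14 members, or 10 higher and 4 lower. The share of all genes at that p was not taken. For Hspb1 the difference was -1.25 ± 0.26 (SE) on the log2 scale, with a limma adjusted p of 0.069, and for Hspb8 it was -0.78 ± 0.18 (SE), with an adjusted p of 0.094. Both are close to the threshold. Depth moved with the groups. With library size as a covariate the adjusted p was 0.106 for Hspb1 and 0.11 for Hspb8, and at a mean of at least 100 normalized counts it was 0.1004 and 0.117, so that neither was called. With quantile normalization Hspb8 was not called either, at 0.112. The Hspb1 call was kept without 14 of the 24 libraries taken out in turn and the Hspb8 call without 9, with adjusted p of 0.022 to 0.2 and 0.037 to 0.27, while the log2 differences stayed between -1.38 and -1.08 and between -0.88 and -0.68. The libraries whose removal ended the Hspb1 call were control saline 106, 107 and 117, control DEX 101, 108 and 122, AS saline 8 and 40, and AS DEX 38 and 42. The same, with control saline 109, PS saline 2 and 28 and PS DEX 6 and 52, ended that of Hspb8. The PS libraries are not in this interaction, and without them the difference of Hspb8 stayed at -0.78. Without AS saline replicate 44 the interaction called 9 members, and without control DEX replicate 112 it called 7. The shares of all genes in these fits were not taken, so the rise cannot be read as particular to the members. DESeq2 called 4 members, beside 3.14% of all genes, of which the others were Hspa12b and Hspa4. For PS against control responses 0 members were called, beside 0.0% of all genes, and 6 had an unadjusted p under 0.05 against 10% of all genes. Between AS and PS responses 0 were called, beside 0.0% of all genes, and 2 had an unadjusted p under 0.05 against 2.46% of all genes.

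Hspa12b, an Hsp70 relative known from endothelial cells, was looked at after its values were seen. Its normalized counts with DEX were 405, 266, 236 and 294 in control mice and 161, 142, 206 and 116 in AS mice, so that the control libraries were all higher. Its log2 fold change was 0.40 ± 0.23 (SE) in control and -0.55 ± 0.23 in AS mice, and the interaction of -0.96 ± 0.32 had a limma adjusted p of 0.18, and was called by limma without AS saline replicate 44 or control DEX replicate 112. Markers of several cell types moved alongside. Of 4 endothelial markers, 3 fell in AS mice (Flt1, Pecam1 and Slco1c1), beside 4.97% of all genes. In PS mice 1 fell (Slco1c1), beside 2.65% of all genes, and in control mice 0 were called. Their median log2 fold changes were -0.71 in AS, -0.43 in PS and 0.06 in control mice. Their summed counts were 3734 to 5700 in control DEX and 2443 to 3662 in AS DEX libraries, against 3783 to 5247 and 3750 to 5714 with saline. The highest of the control DEX sums, 5700, was that of replicate 101, the highest library for Hspb8, Hspb1 and Hspa12b too. Replicate 101 was also the highest control DEX library for the pyramidal (283285), astrocyte (32465), microglial (6142), mural, leptomeningeal, striatal and cilium sums. For GABAergic, oligodendrocyte, blood and choroid plexus markers another control DEX library was the highest. Of 4 mural markers, 3 fell in AS mice and 0 were called in PS or control mice. Their summed counts were 5087 to 7706 in control DEX and 3252 to 4282 in AS DEX libraries. The interaction of AS and control mice called 0 of the 4 mural and 0 of the 4 endothelial markers, so a difference between these classes was not shown for them. The 4 oligodendrocyte markers had median log2 fold changes of -0.33 in control and 0.48 in AS mice. Of 4 microglial markers 2 fell in AS, 2 in PS and 1 in control mice. Their summed counts were 5705 to 6667 with saline and 4494 to 5175 with DEX in AS mice. In PS mice they were 5660 to 6145 and 4551 to 4845. Neither pair overlapped, while the sums of control mice did, at 5039 to 5976 and 4735 to 6142. Of 5 astrocyte markers 2 fell in AS mice, with overlapping sums of 26189 to 32598 with saline and 23415 to 30140 with DEX. In PS mice 1 rose and 1 fell, with sums of 26351 to 30022 and 24046 to 24886, and in control mice 1 rose. The 3 leptomeningeal markers had median log2 fold changes of 0.39 in control, -0.67 in PS and -0.595 in AS mice, with 1 called higher in control mice. The 4 blood markers had 0.39, -0.82 and -0.20, and 0 were called. The 2 tested striatal markers had -0.02, 0.16 and 0.51, with 1 called higher in AS mice. The interaction of AS and control mice called 0 of the microglial, astrocyte, leptomeningeal, blood and striatal markers. Whether these markers had a part in the values of Hspb1 and Hspb8 was not tested.

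**Figure D3:**
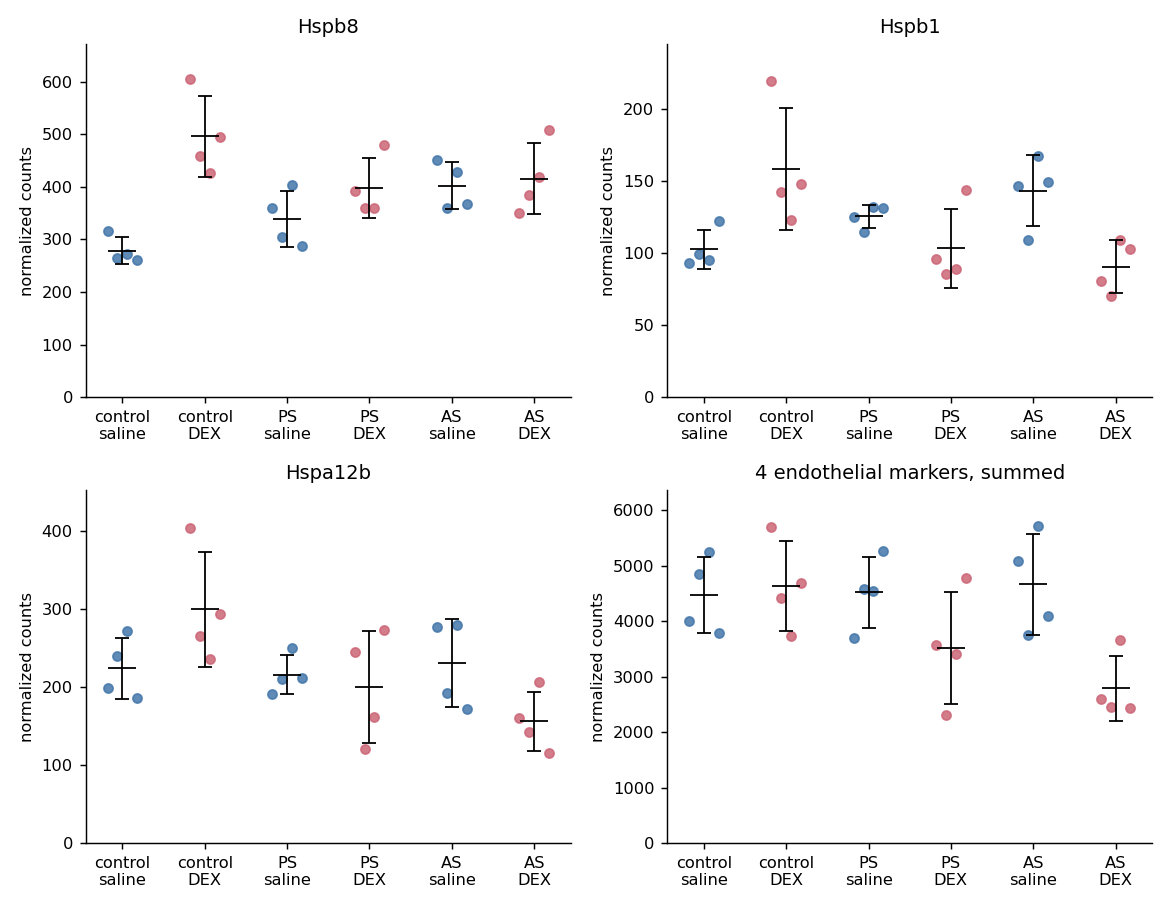
Normalized counts in each library (points, blue for saline and red for DEX) with group means and SD for Hspb8, Hspb1, Hspa12b and the sum of 4 endothelial markers, over the 6 groups. Hspb8 with DEX lies above saline in control mice (427 to 605 against 262 to 316), while Hspb1 lies lower with DEX in AS mice (69.9 to 109 against 109 to 167).

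Hspb11, at chr4:107253593-107279938, carries a small heat shock protein name but is the intraflagellar transport protein IFT25. In PS mice its normalized counts were 147, 139, 147 and 126 with saline and 102, 109, 107 and 84.9 with DEX, with no overlap. It fell by 0.47 ± 0.14 (SE) on the log2 scale, with a limma adjusted p of 0.053. The call was lost without PS saline replicate 2 (adjusted p 0.15), 28 (0.11) or 62 (0.14), and without PS DEX replicate 6 (0.1039) or 56 (0.17). The mean response was -0.21 ± 0.08 (SE), with an adjusted p of 0.095, kept without 10 of the 24 libraries taken out in turn and lost with quantile normalization (0.20), library size as a covariate (0.11) and edgeR (0.103). Hspb3 and Hspb6, which are muscle-rich small heat shock proteins, were not called. Hspb3 was the member of lowest raw level, with 33.7 to 81.0 normalized counts.

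Of the J proteins, Dnajb5 had the lowest adjusted p. It belongs to the same class as Dnajb1 and lies at chr4:42949814-42959425. In PS mice its normalized counts were 3343, 4061, 3528 and 3775 with saline and 4213, 4882, 4078 and 4672 with DEX. The groups did not overlap, though the highest saline library at 4061 and the lowest DEX library at 4078 were close. It rose by 0.28 ± 0.08 (SE) on the log2 scale, with a limma adjusted p of 0.038, and this call was lost without PS saline replicate 2 (adjusted p 0.16) or 62 (0.11) or PS DEX replicate 34 (0.14) or 56 (0.1064).

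The Dnajb5 counts were 3788, 3835, 3729 and 3966 with saline and 4650, 3883, 3726 and 4453 with DEX in control mice. In AS mice they were 3586, 3824, 3570 and 4082 with saline and 4284, 4057, 4716 and 4219 with DEX. Both pairs overlapped, and the log2 fold changes of 0.12 and 0.20 were not called. That in AS mice was called without AS saline replicate 44, at an adjusted p of 0.065. The mean of the 3 responses was 0.20 ± 0.04 (SE), with a limma adjusted p of 0.0027, which held without each library.

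Dnajb1 encodes Hsp40, the main J protein of the cytosolic Hsp70 and one of those that load the glucocorticoid receptor. In control mice its counts were 1816, 1670, 1583 and 1577 with saline and 1931, 1756, 1748 and 1877 with DEX. In PS mice they were 1751, 1688, 1765 and 1600 with saline and 1836, 1960, 1721 and 1815 with DEX. In AS mice they were 1951, 1673, 1863 and 1736 with saline and 1885, 1887, 1798 and 1905 with DEX. All 3 pairs overlapped. The mean response was 0.10 ± 0.03 (SE) on the log2 scale, with a limma adjusted p of 0.064, kept without 17 of the 24 libraries taken out in turn, with adjusted p of 0.029 to 0.12. Removal of control saline 109 or 117, control DEX 101 or 122, PS saline 68, PS DEX 34 or AS saline 14 ended it, as did quantile normalization, at 0.12.

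Dnajb2, a J protein rich in neurons that passes ubiquitinated clients to the proteasome, was the J protein called lower. Its counts in control mice were 1957, 1728, 1722 and 1774 with saline and 1655, 1578, 1491 and 1593 with DEX, with no overlap. The log2 fold change was -0.18 ± 0.06 (SE) there, with a limma adjusted p of 0.12, -0.07 ± 0.06 in PS and -0.11 ± 0.06 in AS mice. In PS mice the Dnajb2 counts were 1767, 1976, 1770 and 1800 with saline and 1705, 1963, 1630 and 1692 with DEX, and in AS mice they were 1973, 1859, 1952 and 1767 and 1710, 1621, 1865 and 1794, with overlap in both. The call in control mice was reached without PS DEX replicate 34, at an adjusted p of 0.073. The mean response was -0.12 ± 0.04 (SE), with an adjusted p of 0.033, and it held without each library. Dnajc28, of the DNAJC group, had 289, 285, 279 and 273 counts with saline and 351, 320, 336 and 325 with DEX in AS mice. The groups did not overlap. It rose by 0.24 ± 0.08 (SE) on the log2 scale, with a limma adjusted p of 0.061. This call was lost without AS saline replicate 8 (adjusted p 0.11), 14 (0.1016) or 40 (0.14) or AS DEX replicate 38 (0.15), and in a fit of only the groups compared (0.18). The mean response of Dnajc28 was 0.11 ± 0.04 (SE), with an adjusted p of 0.098, and it was kept without 5 of the 24 libraries taken out in turn and lost with DESeq2 (0.102) and library size as a covariate (0.11).

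Of the 6 BAG genes, limma over all groups and libraries called Bag5 only, and the calls of Bag6 under other settings are given above. Bag5 encodes an inhibitor of Hsp70 folding with several BAG domains and lies at chr12:111709488-111713257. In AS mice its normalized counts were 1278, 1335, 1189 and 1453 with saline and 1416, 1506, 1567 and 1546 with DEX, which overlapped through AS saline replicate 44. In PS mice they were 1283, 1421, 1358 and 1299 with saline and 1445, 1711, 1479 and 1510 with DEX, with no overlap. In control mice they were 1340, 1298, 1161 and 1378 with saline and 1280, 1248, 1363 and 1243 with DEX.

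Bag5 rose in AS mice by 0.20 ± 0.07 (SE) on the log2 scale, with a limma adjusted p of 0.085. In PS mice the fold change was 0.19 ± 0.07 with an adjusted p of 0.14, and in control mice it was -0.01 ± 0.07. The call in AS mice was lost without 7 of the 24 libraries, which were control saline 107, AS saline 8, 14 and 40 and AS DEX 42, 60 and 72, with an adjusted p of up to 0.31. It was also lost with quantile normalization (0.16), in a fit of only the groups compared (0.24) and with library size as a covariate (0.12). In PS mice Bag5 was called without AS saline replicate 44, at 0.098. The mean response was 0.13 ± 0.04 (SE), with an adjusted p of 0.032, and it held without each library. Bag3 was not called, at 202, 203, 177 and 203 with saline and 311, 228, 216 and 237 with DEX in control mice. These groups did not overlap, and the log2 fold change of 0.32 ± 0.12 (SE) had an adjusted p of 0.17.

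**Figure D4:**
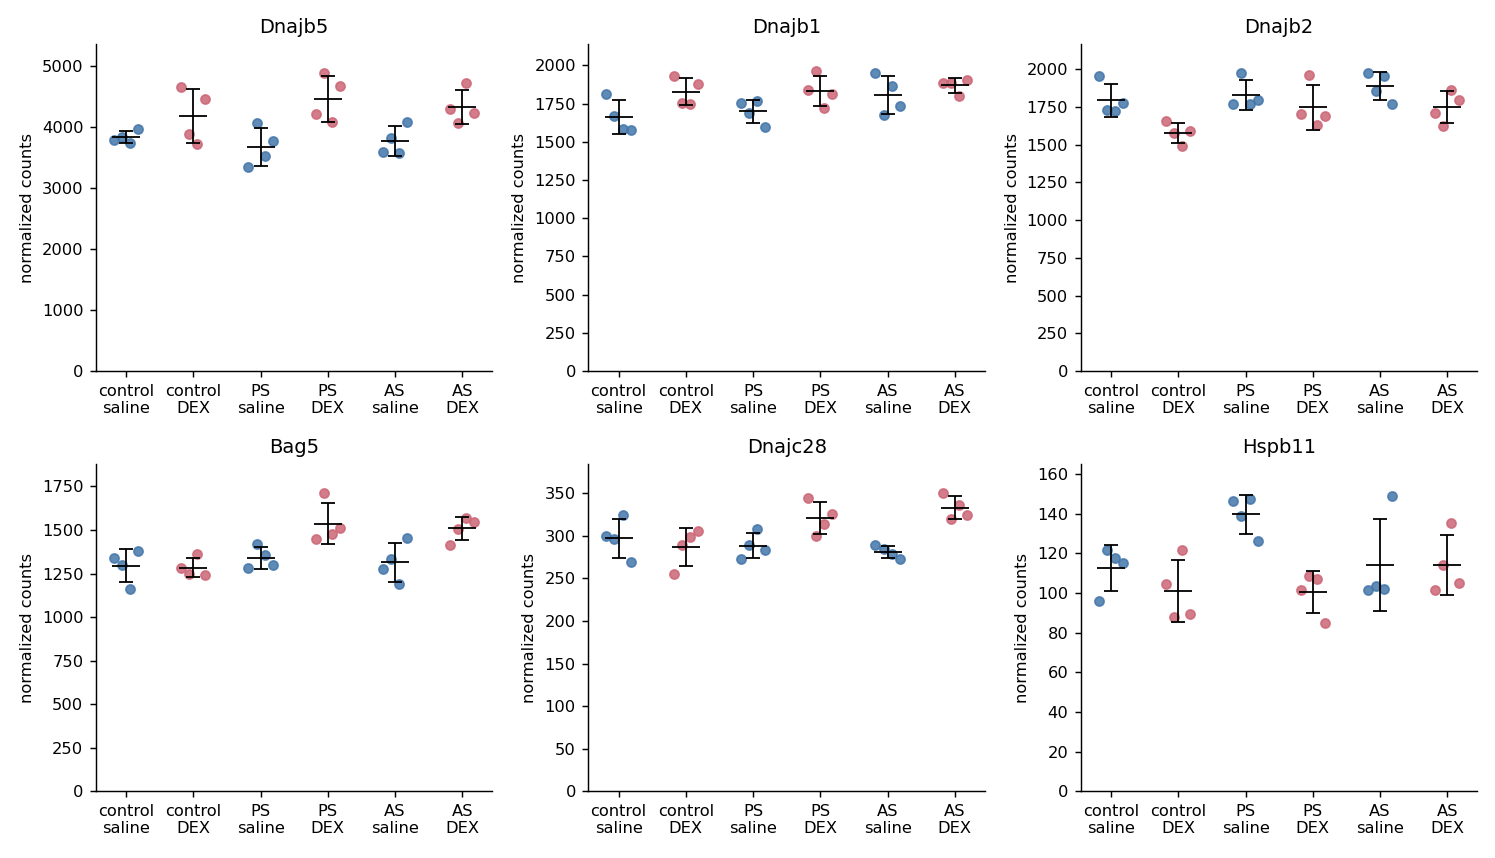
Normalized counts in each library (points, blue for saline and red for DEX) with group means and SD for the 6 other called members, over the 6 groups, with axes from 0. The shifts are small next to the level, as for Dnajb5 in PS mice, at 3343 to 4061 with saline and 4078 to 4882 with DEX.

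The remaining families held few calls under DEX. Among the 13 Hsp70 and Hsp110 genes limma over all libraries called 0 in any comparison, while DESeq2 called Hspa12b and Hspa4 in the interaction of AS and control mice. The mean DEX responses of these 13 genes were -0.11 to 0.09 on the log2 scale. The mean responses were 0.02 for Hspa8, 0.02 for Hspa5, 0.02 for Hspa1a and 0.04 for Hspa1b. Hspa4, Hspa4l and Hsph1, which act as exchange factors of Hsp70, had log2 fold changes of -0.18, -0.22 and -0.12 in control and 0.15, 0.20 and 0.14 in AS mice. None was called with all libraries, and their interactions of 0.33 ± 0.10 (SE), 0.42 ± 0.16 and 0.25 ± 0.09 had limma adjusted p of 0.162, 0.225 and 0.213. Without control DEX replicate 112 the 3 interactions passed, with adjusted p of 0.068, 0.077 and 0.089, and that of Hspa4 also passed without AS saline replicate 44 (0.097) or AS DEX replicate 60 (0.088). Hspd1 and Hspe1 had mean DEX responses of 0.00 and -0.08. The 3 heat shock factors lay between -0.05 and 0.04. The 4 DNAJA genes lay between -0.05 and 0.03. Of the 25 DNAJC genes, 1 was called in the mean response, and they ranged from -0.16 to 0.11. The 8 genes of the ER J proteins with BiP, which include Dnajb9, Dnajb11 and Dnajc3, held 0 calls in all comparisons. Dnajb4 was not called, and Dnajc6 only for DEX in AS mice without AS DEX replicate 60, at an adjusted p of 0.075.

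Other chaperone genes were taken from lists of their families. Of 4 Hsp90 genes, 8 genes of the CCT chaperonin, 7 other exchange factors and regulators of Hsp70 and 1 tested alpha-crystallin gene, Cryab, 0 were called with DEX in any class or in the mean response. The median mean DEX response was -0.01 for Hsp90, 0.01 for CCT and 0.01 for the exchange factors, against 0.00 for all genes tested. This mean joins medians of opposite sign in control and AS mice, at -0.125 and 0.067 for Hsp90 and -0.066 and 0.066 for CCT. For the exchange factors they were -0.027 and 0.050, and for all genes -0.009 and 0.003. The interaction of AS and control mice called 0 genes of these lists, so a difference between the classes was not shown for them. Of 13 Hsp90 co-chaperones, Fkbp5 was higher in each class. Pdcl3, a phosducin-like partner of the CCT chaperonin, fell by 0.13 ± 0.05 (SE) in the mean response, with a limma adjusted p of 0.097. Of 19 tested genes of the unfolded protein response of the ER, 2 rose and 5 fell in the mean response, beside 7.49% of all genes higher and 8.05% lower. Pdia6, a disulfide isomerase, fell by 0.20 ± 0.03 (SE) on the log2 scale, with an adjusted p of 6.2e-05. Pdia4, another isomerase, fell by 0.19 ± 0.04, with an adjusted p of 0.00079. Atf6, a sensor of that response, rose by 0.32 ± 0.06, with an adjusted p of 0.00046. The HSF1 target list of 19 genes held 1 call in control mice and 1 in AS mice, both Hspb1, and 1 in the mean response, which was Dnajb1. Its median log2 fold change with DEX was -0.12 in control, 0.01 in PS and 0.10 in AS mice. The interaction of AS and control mice had a median of 0.19 over this list, against 0.00 for all genes. It called Hspb1 only, which was lower. Of 7 glucocorticoid receptor targets, 5 rose in control, 6 in PS and 5 in AS mice, beside 4.05%, 2.75% and 3.83% of all genes. Of 9 immediate early genes, 0 rose in control, 5 in PS and 1 in AS mice, and limma called 0 of them in each of the 3 interactions, so a difference between the classes was not shown.

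Whether the HSF1 targets rose and fell together between mice of the same group was examined with Hspa1b as the reference. Each gene's log2 values were taken as deviations from its group mean in the 24 libraries, and values were permuted within groups 100000 times, two-sided. Over 18 pairs, adjusted together with Benjamini-Hochberg, 0 had an adjusted p under 0.05 and 2 had an unadjusted p under 0.05. The pair with Dnajb1 had a Pearson's r of 0.54 (permutation p 0.03, adjusted 0.24) and a Spearman's rho of 0.42 (permutation p 0.092, adjusted 0.36). Without the 2 libraries farthest from the median of Hspa1b, AS saline replicates 8 and 14, r was 0.39. The pair with Hspa1a had an r of 0.46 (permutation p 0.025, adjusted 0.24) and a rho of 0.44 (permutation p 0.031, adjusted 0.29), and r was 0.45 without those libraries. Hspa1a shares 48.6% of its stretches of 100 bases with Hspa1b and Hspa1l. The coefficient was above 0 in 7 pairs and below 0 in 11, with Hsp90aa1 at -0.51 (permutation p 0.051, adjusted 0.24; rho -0.46, permutation p 0.048, adjusted 0.29) the lowest.

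**Figure D5:**
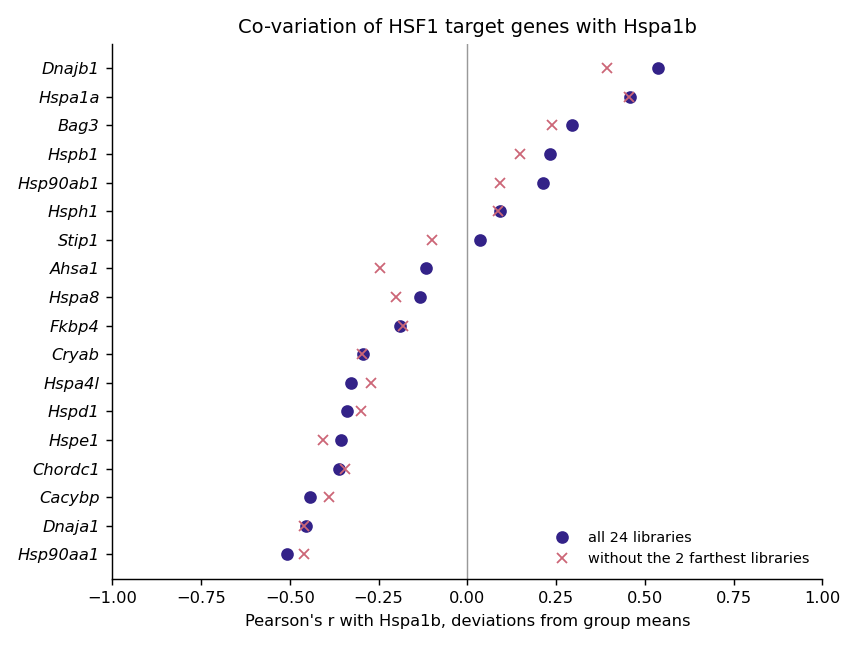
Pearson's r between Hspa1b and each of 18 HSF1 target genes over the 24 libraries, as deviations from group means (circles), and without the 2 libraries farthest from the median of Hspa1b (crosses). The circles run from -0.51 for Hsp90aa1 to 0.54 for Dnajb1.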

How the data were processed

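RNA-seq of the PFC from 24 mice was analysed, 1 library per mouse. Libraries of the dorsal raphe nucleus were not used here. The authors trimmed with fastp 0.20.1, aligned to mm10 (GRCm38) with HISAT2 2.2.1 and assigned reads to GENCODE vM22 with featureCounts (Subread 2.0). The deposited table gives signal, namely reads per gene over a DESeq2 size factor of each library set by the authors. The authors' comparison tables hold log2 fold changes and p-values of DESeq2 1.36.0, none of which was used as a value. A deposited p-value served only to mark the 14060 genes tested. How reads matching several genes were treated is not given in the sources used here.

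Whole reads were recovered (100% of values within 0.01 read). Tests used limma 3.58.1 (R 4.3.3) with its trend option, the values being log2(normalized count + 1), with 1 mean per group over all 24 libraries, 10 comparisons, Benjamini-Hochberg adjustment over 14060 genes and a threshold of 0.1. Fold changes on this scale understate low genes. Alternatives were a pseudocount of 8, a filter at a mean of 100, the full table of 14074 genes, quantile normalization, fits of only the groups compared, library size as a covariate, edgeR 4.0.16, DESeq2 1.42.0 and removal of each library. All groups share 1 estimate of the spread in limma, so removal of a library can move calls in comparisons that do not hold it. The code was tested on simulated data. Exon lengths and shared stretches came from GENCODE vM21, promoter windows from RefSeq. Groups followed the library names in the labels, which read con, dep1 or dep2 with sal or dex and name no coping strategy. The names dep1 and dep2 were taken as PS and AS. With DESeq2 on the recovered reads, dep1 and dep2 saline mice differed from control in 431 and 99 genes. The authors report the same numbers for PS and AS mice.

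Members and gene lists were chosen with earlier results of these data known. Named genes are the members called in any comparison, a set of members named for orientation and up to 3 called genes of each other list. Vessel markers, Hspa12b, Bag6, Dnaja1 and Dnajc2 were named after their values were seen.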

Additional observations from a re-analysis of the deposited data

Results flagged for a closer look

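The DEX responses of AS and control mice differed by the interaction test for Hspb1, at -1.25 on the log2 scale (limma adjusted p 0.069), and for Hspb8, at -0.78 (adjusted p 0.094). Neither passed with library size as a covariate (0.106 and 0.11) or at a mean of at least 100 normalized counts (0.1004 and 0.117).

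In 11 of 168 combinations of a named member and a group of 4, the highest or lowest library lay apart from the other 3 by Dixon's test at the 95% level. Chance flags about 1 in 20. In AS saline mice, replicate 44 was the highest library for Hspb11 at 149 normalized counts (the others 102 to 104), for Bag1 at 3008 (2415 to 2476) and for Dnajb11 at 1381 (1219 to 1225). In AS DEX mice, replicate 60 was the highest for Hspa8 at 45117 (40880 to 41060) and for Bag1 at 3195 (2428 to 2478). In PS DEX mice, replicate 34 was the highest for Hspa8 at 43659 (38430 to 39109) and replicate 52 for Hsf2 at 783 (639 to 658). In PS saline mice, replicate 28 was the highest for Dnajb2 at 1976 (1767 to 1800), replicate 2 the highest for Dnajb9 at 1186 (941 to 976) and replicate 68 the lowest for Dnajc3 at 1286 (1442 to 1449). In control saline mice, replicate 109 was the lowest for Bag3 at 177 (202 to 203).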

How the results depend on the processing

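Counts of members called are given with limma unless another tool is named. They stand here without the share of all genes called under the same alternative. In PS against control mice the count was 0, and it was 2 in a fit of only the groups compared, 1 with DESeq2 and 0 to 1 without single libraries. In AS against control mice it was 0, and it was 1 with library size as a covariate, 1 with DESeq2 and 0 to 1 without single libraries. For DEX in control mice it was 2, with 1 in a fit of only the groups compared and 1 to 3 without single libraries. For DEX in PS mice it was 2, with 0 to 3 without single libraries. For DEX in AS mice it was 3, with 2 with quantile normalization, 2 with library size as a covariate, 1 in a fit of only the groups compared and 0 to 11 without single libraries. The mean DEX response had 7, with 5 with quantile normalization, 5 with library size as a covariate, 6 with DESeq2, 6 with edgeR and 4 to 7 without single libraries, and it could not be fitted within only the groups compared. The interaction of AS and control mice had 2, with 0 at a mean of at least 100 normalized counts, 1 with quantile normalization, 0 with library size as a covariate, 4 with DESeq2 and 0 to 9 without single libraries. For AS against PS mice, the interactions of PS with control and of AS with PS mice and the pairs with Hspa1b, the count was 0 under every alternative run. Of the fold changes of named genes under an alternative, 8808 kept their side of the threshold, 108 lost a call, 16 gained one and 0 changed sign after a call. Most of the 8808 were called in neither fit, so they do not measure how stable the calls are. Only the 16 calls of the main fit could be lost. Each was fitted again under 7 or 8 settings and without each of the 24 libraries. The cause of the lost and gained calls was not tested. No paired analysis was possible because no mouse number recurs between groups. With 4 mice a group, a median SE of 0.08 on the log2 scale limits what a single DEX response can show.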
